A study of Mus musculus with 69 samples.

Results

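Kidney RNA of 4 NZB/W F1 mice in remission of lupus nephritis was compared with kidney RNA of 6 nephritic mice of the same strain, all with the time label Zeitgeber time (ZT) 12, the hour of lights off. These are 10 of the 69 libraries of the series, taken as every original library labelled ZT12 with the diagnosis Remission or nephritis. The question is what kidney RNA was lower and what was higher after treatment had brought proteinuria down. NZB/W F1 mice are a hybrid strain whose females develop autoantibodies, immune complex deposits in the glomeruli and proteinuria. In such kidneys, injured tubules and infiltrating myeloid cells make chemokines, fibroblasts lay down matrix, and the proximal tubule, which lives on fatty acid oxidation, loses transport and metabolic genes. The treatment joins an alkylating drug that kills dividing lymphocytes, cyclophosphamide, to a pair of costimulation blockers: CTLA4Ig, which covers CD80 and CD86 so that CD28 on T cells cannot bind them, and anti-CD40L, which keeps the T cell ligand CD40L from CD40 on B cells, myeloid cells and kidney cells.

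The nephritic mice were 30 to 45 weeks old and were harvested 2 to 3 weeks after proteinuria had passed 300 mg/dl, with a blood urea nitrogen limit of 25 mg/dl, and no treatment is stated for them. The remission mice were 36 to 50 weeks old when treated. They had received 1 dose of cyclophosphamide (50 mg/kg) and 6 doses each of CTLA4Ig (200 ug) and anti-CD40L (250 ug) over 2 weeks, and their kidneys were taken 8 weeks later with proteinuria at or under 30 mg/dl. Kidneys of both groups were perfused with PBS, and 7 young mice of the strain, aged 12 weeks and also labelled ZT12, show the kidney before disease. Only mice that kept their remission were harvested, and remission mice were also older and further from the onset of disease, so the effects of drug, remission, selection and age cannot be told apart. The p-values given measure the spread between these mice.

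Total counts per library were 14827429 to 21849912 in remission mice, 26596500 to 37771234 in nephritic mice and 25257530 to 33900461 in young mice. Levels are given as CPM, counts scaled to library size with edgeR's TMM factors, which compare a gene between mice but not with another gene, since they are not divided by length. The proximal tubule markers, 32 transporters and enzymes that define that segment, summed to between 23886 and 32965 CPM in remission mice, so the kidney's own markers were present. The labels name no sequencing run, but the library numbers of the remission mice continue into 4 repeat libraries of mice that also have an original library, and these were used to gauge the shift between runs. In 3 of them the nearest of 29 libraries was the original of the same mouse (r from 0.9951 to 0.9972 across 14192 genes), while the repeat labelled RX11RU was nearest to mouse RX9RL (r = 0.9837) and had its own original in place 9 (r = 0.9747). The 29 libraries were all labelled ZT0 or ZT12. Clock genes of the RX11RU repeat also differed from its original. Nr1d1 was at 88 against 18.7 CPM, Cry1 at 3.36 against 32 CPM and Per2 at 28.7 against 132.6 CPM. Arntl was nearer, at 9.02 against 12.2 CPM. The remission library labelled s9 had the lowest total, and its clock genes went against its label: Arntl was at 27.7 CPM there, 3.25 to 4.96 CPM in the other remission libraries labelled ZT12 and 23.2 to 29.4 CPM in the 4 remission libraries labelled ZT0. For most named genes the adjusted p without s9 is therefore given as well. The 2 nephritic mice with titles starting with HIL had proximal tubule sums of 8248.5 and 10508 CPM, against 24769 to 33984 CPM in the 4 nephritic mice with titles starting with RX, and the comparison was also run without them. Of the genes named below, Cxcl2, Msr1, Anxa1, Acta2, Pmaip1, Slc4a1, Dbp and Fgb lost their call without the HIL mice, with adjusted p values given beside each.

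Of 15481 genes tested with edgeR's quasi-likelihood test at an adjusted p of at most 0.05, 1382 (8.93%) were lower in remission than in nephritic mice and 735 (4.75%) were higher, so that 65.3% of calls were lower. With libraries scaled to an equal median count, 54.1% of calls were lower, and with RLE size factors 59.7%. The CPM ranges of the groups did not overlap for 1413 lower genes (9.13%) and 1121 higher genes (7.24%). Without s9, 891 genes (5.77%) were lower and 397 (2.57%) higher. Without the 2 HIL mice, 1471 (9.74%) were lower and 1344 (8.9%) higher, and without those mice and s9, 1127 (7.51%) were lower and 1006 (6.7%) higher. The median log2 difference over all genes tested was -0.05, and gene groups are set beside it. Fitted levels were lower in remission for 8530 of the 15481 genes (55.1%), and for 7346 of 15105 without the HIL mice. Counts of lower fitted levels in a list are to be read beside these.

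The repeat libraries differed from their originals in many genes. Over the 3 pairs whose repeat lay nearest its own original, 1664 of 14789 genes (11.3%) were lower in the repeat and 1724 (11.7%) higher, while all 4 pairs gave 3 lower (0.0197%) and 16 higher (0.105%). Of the 1382 genes lower in remission, 1356 were also tested in the pairs, with a median run shift of -0.09. There 993 of the 1356 shifted down from original to repeat, the direction of the remission difference, beside 7402 of 14789 over all genes. Of the 1356, 343 were called lower in the repeat and 40 higher, and 1269 had a remission difference over 2 times the run shift. Of the 735 higher genes, 730 were tested, with a median run shift of 0.12, and 614 shifted up from original to repeat. Of the 730, 287 were called higher in the repeat and 2 lower, and 644 had a difference over 2 times the shift. The counts over 2 times the shift were taken among called genes only, with no share over all genes. When run was entered as a term, bridged by these 3 mice, 48 of 16050 genes (0.299%) were lower in remission and 0 were higher, against 2105 at an unadjusted p under 0.05. With all 4 bridging mice, 262 (1.63%) were lower and 38 (0.236%) higher. These fits held no mouse term. With 3, each bridging mouse formed a group of its own. With 4, the RX11RU repeat joined the nephritic mice at ZT12 beside its own original, so it was set against all of them. All 48 genes had been called without the run term. None had overlapping ranges, beside 9.13% of all genes lower without overlap, but ranges and calls come from the same values. Of the 48, 47 were also lower in remission than in young mice, beside 18.3% of all genes in that comparison. The members of the 48 described here are Xist, Firre, Cfap69, Pnisr, Clk4, Srsf11, Luc7l, Srek1, Prpf39 and Ptbp2. Every other named gene that rose or fell against nephritic mice did not pass with the run term of 3 bridging mice. For some of them the difference moved little while its SE grew. Hpx went from -3.89 (SE 0.99) to -3.85 (SE 1.30) and Olfr78 from -3.38 (SE 0.52) to -3.07 (SE 0.69). For others, such as Rn45s below, the difference itself shrank.

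**Figure D1:**
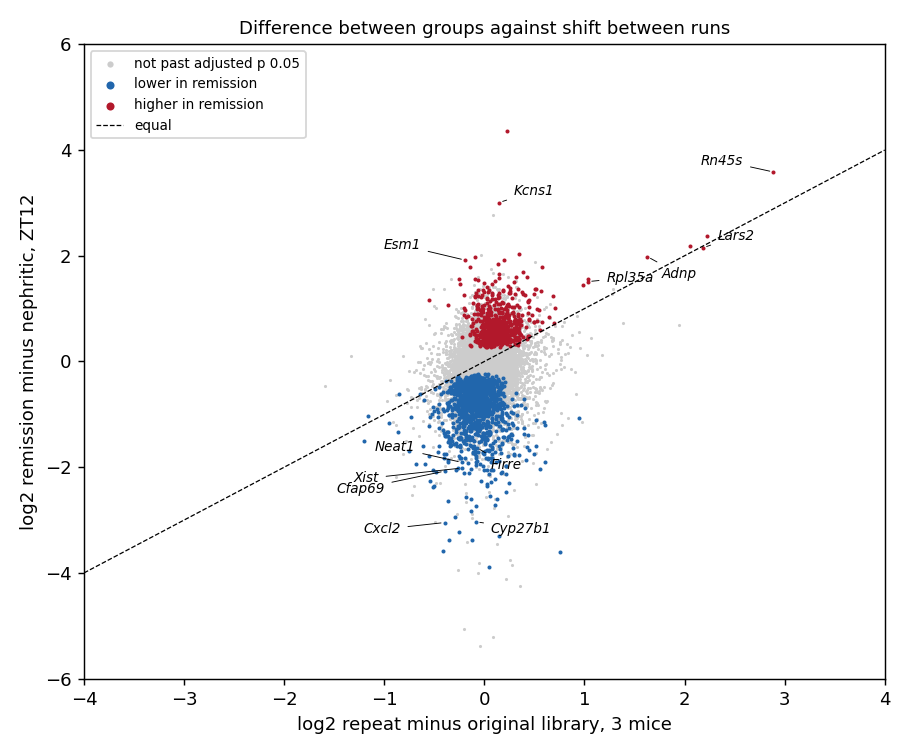
Scatter of 14748 genes, with the log2 difference between the repeat and the original library of 3 mice on the x axis and the log2 difference between remission and nephritic mice at ZT12 on the y axis; each point is a gene, colours mark genes called lower or higher in remission, and 13 genes lie outside the axes. Genes such as Rn45s and Lars2 lie far out on both axes, near the dashed line where both differences are equal, while Cxcl2, Cyp27b1 and Xist lie low on the y axis within 1 log2 unit of 0 on the x axis.

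Of 26 chemokine genes in the files, 25 had enough counts for the test, and Cxcl1 and Cxcl2 fell while Ccl28 rose, beside 8.93% lower and 4.75% higher over all genes. Without s9, 0 of the 25 passed, and without the HIL mice 1 of 23 was lower and 1 higher. The median log2 difference of the 25 was -0.94, and -0.12 without the HIL mice. The remission values of each gene are given in the order s10, s12, s14 and s9. Cxcl1, a neutrophil chemokine made by tubular and endothelial cells, was at 2.02, 12.3, 6.06 and 1.89 CPM in remission mice and at 11.3, 23.7 and 45 CPM (lowest, median, highest) in nephritic mice. All remission mice but s12 lay under the lowest nephritic mouse. It fell by 2.32 on the log2 scale (SE 0.58, adjusted p = 0.026 by edgeR; 0.0615 without s9). Cxcl2, a ligand of the same receptor, was at 0.253, 1.00, 1.10 and 0.202 CPM in remission and at 1.03, 3.81 and 12.8 CPM in nephritic mice. The groups overlapped only through s14 and the lowest nephritic mouse. It fell by 3.05 (SE 0.83, adjusted p = 0.035; 0.0881 without s9; 0.0529 without the HIL mice). In young mice Cxcl1 was at 1.55 to 6.49 CPM and Cxcl2 at 0.0352 to 0.213 CPM. Ccl28, a chemokine of mucosal epithelium, went the other way, with 62.7, 56.8, 119 and 82.9 CPM in remission against 30.0, 42.3 and 59.0 CPM, a rise of 0.90 (SE 0.23, adjusted p = 0.0304; 0.0705 without s9). Its remission range overlapped the nephritic range through s12 alone.

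Cxcl1 and Cxcl2 are neighbours on mouse chromosome 5 and both are known targets of NF-kappaB, the factor that inflammatory cytokines switch on. Their promoters, from 250 bases before to 50 after the start in RefSeq on GRCm38.p6, plus strand, are shown because these are the members of the chemokine list that fell and because they share a run of letters. In capitals is GGGAATTTCCCTGG, the longest run that the 250 bases before both starts have in common; it opens with a kappaB-type motif, the kind of site NF-kappaB binds, and stands in each promoter as 1 copy. The interval of Cxcl1 is chr5:90890995-90891294 and that of Cxcl2 is chr5:90903649-90903948.
Cxcl1: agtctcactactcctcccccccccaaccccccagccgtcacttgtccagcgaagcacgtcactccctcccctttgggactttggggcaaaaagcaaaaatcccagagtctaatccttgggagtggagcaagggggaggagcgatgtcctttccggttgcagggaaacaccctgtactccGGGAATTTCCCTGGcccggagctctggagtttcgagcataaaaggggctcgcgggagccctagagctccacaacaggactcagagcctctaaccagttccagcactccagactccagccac
Cxcl2: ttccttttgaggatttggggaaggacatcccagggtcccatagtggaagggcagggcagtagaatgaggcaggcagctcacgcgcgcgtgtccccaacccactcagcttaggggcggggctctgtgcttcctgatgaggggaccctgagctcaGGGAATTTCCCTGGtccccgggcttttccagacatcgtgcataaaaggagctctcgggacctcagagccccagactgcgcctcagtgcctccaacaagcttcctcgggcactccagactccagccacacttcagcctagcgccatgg
The run ends 57 bases before the start of Cxcl1 and 83 bases before that of Cxcl2. On either strand it is held by 2 of 32851 promoters of this length (0.00609%), the pair it was taken from. A match of letters is a description and says nothing of what bound there in these mice.

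**Figure D2:**
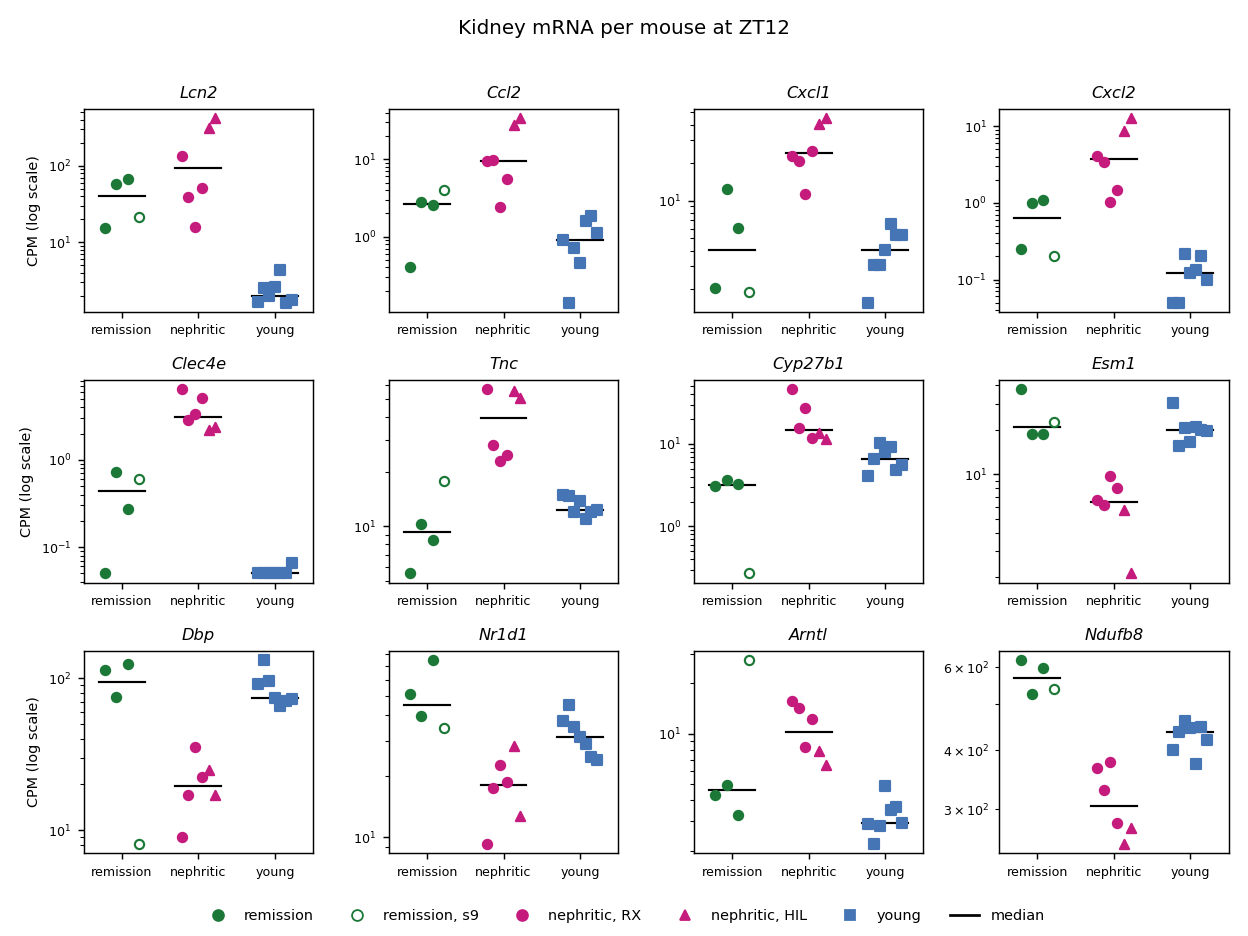
CPM on a log axis for 12 genes in each mouse at ZT12, with a panel per gene; remission mice are green circles (s9 open), nephritic mice are circles (RX) or triangles (HIL), young mice are squares, a black line marks each group's median, and values under 0.05 CPM are drawn at 0.05. Cxcl1, Cxcl2, Clec4e, Tnc and Cyp27b1 lie lower in remission than in most nephritic mice, Esm1 and Nr1d1 lie higher, and s9 stands apart for Dbp, Arntl and Cyp27b1.

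The 9 inflammation and injury genes that the study followed were Il1b, Ccl2, Ccl5, Cd14, Cxcl10, Tnf, Vcam1, Timp1 and Lcn2. At ZT12 alone, all 9 had lower fitted levels in remission, with a median log2 difference of -1.53, and 0 of the 9 passed the test. The median without the HIL mice was -0.69, with 8 of 9 below 0. Lcn2, a siderophore-binding protein that injured tubules release, was at 15.2, 57.7, 66.0 and 21.5 CPM in remission and at 16, 92.9 and 418 CPM in nephritic mice. The HIL mice held the top of that range, and the RX mice, from 16 to 135 CPM, covered nearly the whole remission range. The log2 difference was -2.03 (SE 0.89, adjusted p = 0.146), and -0.57 without the HIL mice (adjusted p = 0.556). Ccl2, which recruits monocytes, was at 0.405, 2.77, 2.53 and 3.98 CPM against 2.40, 9.62 and 34.0 CPM, with a difference of -2.65 (SE 0.81, adjusted p = 0.0528). All remission mice but s10 lay inside the nephritic range. Timp1, an inhibitor of matrix proteases, differed by -2.61 (adjusted p = 0.0888). The other differences ran from -0.70 for Il1b to -1.55 for Tnf, with adjusted p values up to 0.494. Against young mice, 8 of the 9 were still higher in remission, beside 20.6% of all genes in that comparison. Among them was Lcn2, which was at 1.63 to 4.35 CPM in the young and differed by 4.12 on the log2 scale (adjusted p = 4.38e-05).

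Among genes of myeloid cells, Clec4e, a receptor of macrophages and neutrophils for microbial lipids and dead cells, was at 0, 0.716, 0.275 and 0.607 CPM in remission and at 2.19, 3.13 and 6.47 CPM in nephritic mice. Every remission mouse lay under every nephritic mouse. It fell by 3.25 (SE 0.65, adjusted p = 0.0116; 0.0266 without s9). Msr1, a macrophage scavenger receptor, was the only gene past the test among 27 tested of 28 macrophage and myeloid genes, whose median was -0.63 and -0.06 without the HIL mice, when 0 of 26 passed. That is 1 of 27 beside 8.93% over all genes. It was at 0.405, 3.01, 2.15 and 1.89 CPM against 3.05, 6.81 and 10.4 CPM, with s12 just under the lowest nephritic mouse. It fell by 1.90 (SE 0.53, adjusted p = 0.0375; 0.0858 without s9; 0.0702 without the HIL mice). Mrc1, the mannose receptor, differed by -1.01 (adjusted p = 0.0508), Cd14 by -1.19 (0.137) and Lyz2, lysozyme of myeloid cells, by -0.83 (0.124). The summed level of the list was 329 to 1055 CPM in remission, 739 to 2002 CPM in nephritic and 213 to 261 CPM in young mice. In bulk kidney, fewer cells of a type and less RNA per cell cannot be told apart. Il11, a cytokine that acts on fibroblasts and epithelium, was at 0.101, 0.382, 0.330 and 0.135 CPM against 0.532, 1.34 and 3.24 CPM. Its groups did not overlap, and it fell by 2.82 (SE 0.68, adjusted p = 0.0231; 0.0637 without s9).

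Tubular injury genes were lower in fitted level in 28 of 28 cases, with a median of -0.98, but only Hmox1 and Anxa1 passed, 2 of 28 beside 8.93% over all genes. Without the HIL mice 15 of 27 had lower fitted levels, beside 7346 of 15105 over all genes. The median was then -0.24 and 1 passed. Without s9, 0 of 28 passed. Hmox1, the heme-degrading enzyme of the oxidative stress response, was at 12.9, 14.6, 25.8 and 15.6 CPM against 23.7, 38.6 and 76.1 CPM. Only s14 reached into the nephritic range. It fell by 1.32 (SE 0.33, adjusted p = 0.0278; 0.0722 without s9). Anxa1, an annexin that limits neutrophil entry, fell by 0.78 (SE 0.23, adjusted p = 0.0478; 0.122 without s9; 0.102 without the HIL mice). Havcr1, the kidney injury molecule KIM-1, was at 78.5, 92.1, 121 and 107 CPM against 43.8, 134 and 527 CPM. Its remission values lay inside the nephritic range, and the difference of -1.24 did not pass (adjusted p = 0.225). In the summed list, remission mice (3343 to 6618 CPM) overlapped the RX mice (3838 to 11453 CPM) and lay under the HIL mice (18148 and 21740 CPM).

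Matrix genes that fell were Tnc, Loxl2, Col12a1 and Acta2, 4 of 32 tested beside 8.93% over all genes, with a list median of -0.61 (-0.30 without the HIL mice). The count was 5 without s9 and 3 without the HIL mice. Tnc, the matricellular protein tenascin-C of wounds and fibrosis, was at 5.51, 10.3, 8.37 and 17.8 CPM in remission and at 22.9, 39.4 and 57.1 CPM in nephritic mice. The groups did not overlap, and in 3 of 4 remission mice the level was under the young minimum of 11 CPM. It fell by 1.95 (SE 0.39, adjusted p = 0.0121; 0.0131 without s9). Loxl2, a lysyl oxidase that cross-links collagen, was at 11, 17.6, 16.7 and 13.7 CPM against 23.6, 34.2 and 64.5 CPM. Again no mouse of either group reached the range of the other, and Loxl2 fell by 1.35 (SE 0.28, adjusted p = 0.0132; 0.0393 without s9). It was still above the young level of 9.12 to 11 CPM, by 0.56 (adjusted p = 0.00364). Col12a1, a fibril-associated collagen, fell by 0.75 (SE 0.16, adjusted p = 0.0148; 0.0411 without s9). Acta2, the actin of myofibroblasts and vascular smooth muscle, fell by 1.42 (SE 0.39, adjusted p = 0.0372; 0.0796 without s9; 0.069 without the HIL mice).

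Stress, cell cycle and immediate early genes held a few further falls, to be read beside the 8.93% lower over all genes. Among 17 p53 target genes, 3 fell and the median was -0.38. Without s9 0 of the 17 passed, and without the HIL mice 2 were lower, 1 was higher and the median was -0.05. Gdf15, a stress cytokine of the TGF-beta family, was at 10.7, 19.4, 18.1 and 9.31 CPM against 21.7, 53.2 and 91.0 CPM. All remission mice lay below all nephritic mice and near the young range of 8.44 to 21 CPM, and Gdf15 fell by 1.85 (SE 0.42, adjusted p = 0.0175; 0.0518 without s9). Mdm2, the ligase that removes p53, fell by 0.41 (adjusted p = 0.0244; 0.0633 without s9) and Pmaip1, a BH3-only death protein, by 1.19 (adjusted p = 0.0334; 0.084 without s9; 0.0541 without the HIL mice). Of 29 proliferation genes, 28 had lower fitted levels and the median was -1.11. Kif20a, a kinesin of cytokinesis, was the only member past the test, with a fall of 0.92 (adjusted p = 0.0289; 0.0764 without s9), while Cdk1 differed by -1.77 (adjusted p = 0.0638). Of 16 immediate early genes, Klf6 fell by 0.91 (adjusted p = 0.0174; 0.0512 without s9), Fosb by 0.88 (0.0253; 0.0687) and Ier3 by 0.62 (0.0421; 0.111). Of 9 heat shock and cold genes, Rbm3, an RNA-binding protein that rises in the cold, fell by 0.79 (adjusted p = 0.0217; 0.0581 without s9), and the run shift of Rbm3 was -0.38.

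Lymphocyte genes did not pass. Of 21 T and NK cell genes tested, 19 B and plasma cell genes, 11 costimulation genes, 10 MHC class II genes, 34 interferon-stimulated genes and 19 complement genes, 0 passed in either direction, against 8.93% lower and 4.75% higher over all genes. Their medians were -0.41, -0.42, -0.46, -0.47, -0.14 and -0.41. Without the HIL mice they were 0.45, 0.49, -0.14, 0.33, 0.27 and -0.01, with 1 B cell gene and 1 interferon-stimulated gene higher. Ms4a1, which encodes CD20 of B cells, was at 1.06, 9.74, 19.2 and 7.15 CPM in remission and at 5.58, 8.42 and 54.8 CPM in nephritic mice. Remission mouse s10 was the lowest of the 10 and s14 lay above all RX mice, whose highest value was 15.0 CPM. The difference was -0.86 (SE 0.81, adjusted p = 0.494). In young mice Ms4a1 was at 0 to 0.271 CPM, and remission mice were higher by 6.09 (adjusted p = 7.28e-05).

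The genes that the blockers act on were measured at low levels. Cd86, a ligand of CTLA4Ig on antigen-presenting cells, was at 2.28, 5.73, 7.16 and 3.78 CPM in remission and at 4.41, 5.96 and 19.4 CPM in nephritic mice. The ranges overlapped, and the difference was -0.78 (SE 0.47, adjusted p = 0.275). Cd80, the other ligand, was at 0.101, 0.573, 0.826 and 0 CPM against 0.296, 0.621 and 2.28 CPM (difference -1.12, SE 0.82, adjusted p = 0.373). Cd28, the T cell receptor for both, was at 0.303, 5.11, 7.54 and 1.89 CPM against 1.70, 3.19 and 15.4 CPM (difference -0.53, SE 0.79, adjusted p = 0.682). All remission mice but s10 lay inside the nephritic range of Cd28. Ctla4, the inhibitory receptor whose outer part CTLA4Ig carries, differed by -0.75 (adjusted p = 0.503), Cd40 by -0.33 (0.653) and Cd40lg, which encodes CD40L, by -0.20 (0.872). Cd40lg was at 0.0506 to 0.661 CPM in remission and 0.154 to 1.27 CPM in nephritic mice. Summed B and plasma cell genes were at 137 to 1182 CPM in remission, 281 to 3132 CPM in nephritic and 35.1 to 42.2 CPM in young mice. T and NK cell genes were at 19.98 to 164 CPM, 57.3 to 336 CPM and 10.3 to 15.6 CPM. Against young mice, 18 of 18 B and plasma cell genes, 18 of 19 T and NK cell genes and 10 of 10 MHC class II genes were higher in remission, beside 20.6% of all 15238 genes in that comparison.

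**Figure D3:**
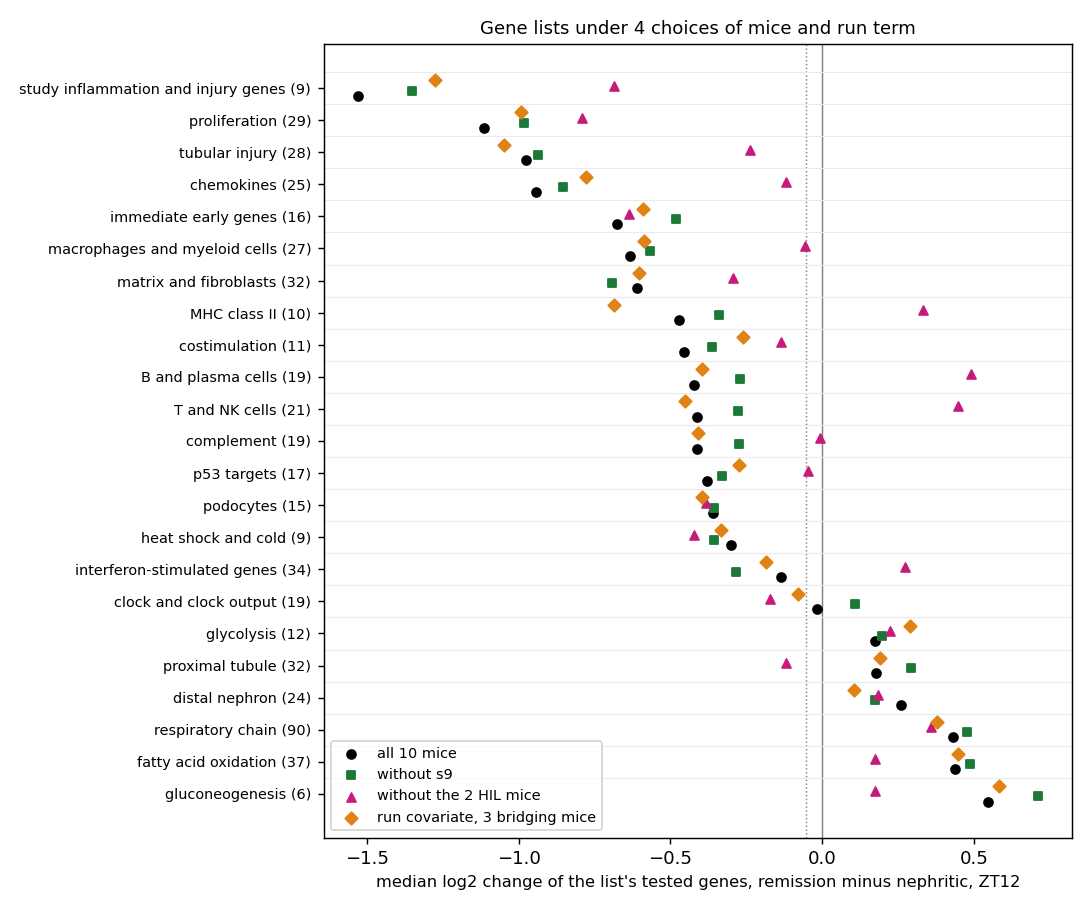
Median log2 difference between remission and nephritic mice at ZT12 for 23 gene lists (rows), over all 10 libraries and in 3 other settings shown by separate symbols, with a dotted line at the median of all genes tested. The lymphocyte and MHC class II lists lie below 0 with all mice and above 0 without the HIL mice, while the matrix, proliferation and respiratory chain lists keep their side.

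Xist, Firre and Cfap69 were among the genes with the smallest adjusted p. Xist, the long noncoding RNA that coats the inactive X chromosome of females, was at 226, 304, 268 and 280.4 CPM in remission and at 784, 1070.5 and 1368 CPM in nephritic mice. The highest remission mouse had less than the lowest mouse of either other group, since the young range was 615 to 995 CPM. Xist fell by 2.02 (SE 0.19, adjusted p = 0.000765; 0.0045 without s9; 0.0203 with the run term). Firre, a nuclear RNA transcribed from the X chromosome, was at 37.8, 46.1, 46.1 and 45.4 CPM against 94.2, 135 and 172 CPM. All remission mice lay close together, far under the nephritic mice and under the young range of 109 to 133 CPM. It fell by 1.63 (SE 0.16, adjusted p = 0.000765; 0.0045 without s9; 0.0203 with the run term). Cfap69, a cilium and flagellum gene, was at 5.11, 6.20, 4.51 and 6.07 CPM against 19.2, 23.0 and 26.4 CPM. It had the smallest adjusted p of the named genes, with no overlap between the groups and a fall of 2.07 (SE 0.15, adjusted p = 0.000476; 0.00354 without s9; 0.0203 with the run term).

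The splicing genes were gathered by symbol after their values had been seen, so their count is a description. Of 55 SR proteins, hnRNPs, CLK kinases and their partners, 28 fell and 0 rose (median -0.43), beside 8.93% lower over all genes. Without s9, 25 fell and 1 rose, beside 5.77% lower and 2.57% higher. With the run term of 3 bridging mice 9 fell, beside 0.299%. In the repeat libraries 22 of 54 were lower than in the originals and 4 higher, with a median of -0.07, beside 11.3% and 11.7% over all genes. Pnisr, an SR-like protein of nuclear speckles, was at 42.8, 49.1, 57.9 and 58.4 CPM in remission and at 116, 152 and 185 CPM in nephritic mice. The remission mice fell short of the lowest nephritic mouse and of the lowest young mouse, both at 116 CPM. Pnisr fell by 1.60 (SE 0.15, adjusted p = 0.000765; 0.0045 without s9; 0.0203 with the run term). Clk4, a kinase that phosphorylates SR proteins, was at 34.7, 34.2, 40.4 and 35.7 CPM against 61.6, 71.2 and 84.7 CPM, and fell by 1.04 (SE 0.11, adjusted p = 0.000765; 0.00478 without s9; 0.0299 with the run term). Its young range was 61.9 to 74.7 CPM, above every remission mouse. Of other splicing factors, Luc7l fell by 1.04, Srsf11 by 1.11, Srek1 by 1.19, Ptbp2 by 1.34 and Prpf39 by 1.46. The groups did not overlap for any of the 5, beside 9.13% of all genes, but ranges and calls come from the same values. Without s9 the adjusted p of the 5 ran from 0.00354 (Luc7l and Ptbp2) to 0.00499 (Prpf39).

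Neat1, the RNA scaffold of paraspeckles, was at 525, 807, 1292 and 843 CPM against 1894, 3088 and 4749 CPM. No remission mouse reached the nephritic range, and s14 came nearest. Neat1 fell by 1.91 (SE 0.36, adjusted p = 0.00927; 0.0293 without s9) and had an adjusted p of 0.17 with the run term. Malat1, its neighbour and another abundant nuclear RNA, was at 497, 605, 595 and 1487 CPM against 934, 1808 and 2697 CPM. Only s9 lay within the nephritic range, and the difference of -1.20 did not pass (adjusted p = 0.0677; 0.0231 without s9). The run shift of Malat1 was 0.78, opposite in sign to its difference, while that of Xist was -0.22, of Firre -0.08 and of Neat1 -0.23. In the 4 remission mice labelled ZT0, Xist was at 172 to 328 CPM and Neat1 at 695 to 1194 CPM, near the remission range at ZT12.

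**Figure D4:**
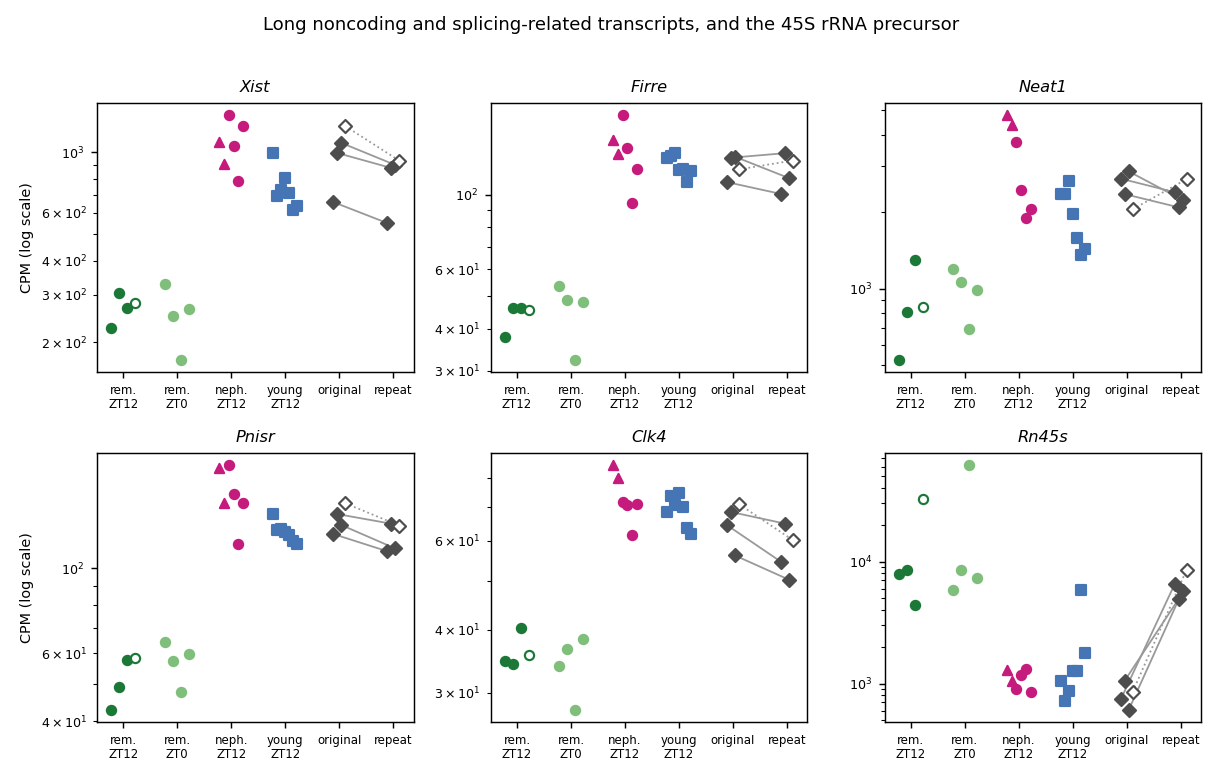
CPM on a log axis of Xist, Firre, Neat1, Pnisr, Clk4 and Rn45s in remission mice at ZT12 and ZT0, nephritic and young mice at ZT12, and in 4 original libraries joined by lines to their repeats (the RX11RU pair as open diamonds with a dotted line). The first 5 genes lie lower in both remission groups than in the other groups and change less between original and repeat than between those groups, whereas Rn45s rises from original to repeat in the joined pairs.

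Hormone, vessel and distal tubule genes gave both falls and rises. Cyp27b1, the enzyme that makes active vitamin D in the proximal tubule, was at 3.09, 3.63, 3.25 and 0.270 CPM in remission and at 11.4, 14.8 and 46.4 CPM in nephritic mice. Every remission mouse lay below every nephritic mouse and below the young range of 4.06 to 10.2 CPM, with s9 the lowest. It fell by 3.03 (SE 0.62, adjusted p = 0.0128; 0.0183 without s9). Esm1, an endothelial proteoglycan enriched in kidney capillaries, was at 37.8, 18.9, 18.7 and 22.7 CPM against 2.12, 6.43 and 9.64 CPM. All remission mice were above all nephritic mice and within or above the young range of 15.6 to 30.5 CPM. Esm1 rose by 1.92 (SE 0.35, adjusted p = 0.00792; 0.0205 without s9), and its run shift was -0.19. Kcns1, a modifier subunit of voltage-gated potassium channels, was at 9.51, 6.01, 7.38 and 14.2 CPM against 0.195, 0.965 and 2.30 CPM, and the groups lay well apart. It rose by 3.01 (SE 0.64, adjusted p = 0.0148; 0.0428 without s9) and stood above the young range of 3.86 to 4.94 CPM.

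In the distal nephron list 2 of 24 genes rose, beside 4.75% over all genes, with a median of 0.26 (0.18 without the HIL mice). Without s9 0 of 24 were higher, and without the HIL mice 1 was. Pvalb, the calcium-binding protein of the early distal convoluted tubule, was at 290.04, 166, 150.5 and 245 CPM against 21.8, 51 and 110.1 CPM. Remission mice were above all nephritic mice and close to the young range of 171 to 285 CPM. It rose by 1.84 (SE 0.48, adjusted p = 0.0301; 0.0705 without s9). Slc4a1, the basolateral anion exchanger of acid-secreting intercalated cells, rose by 1.19 (SE 0.33, adjusted p = 0.0388; 0.115 without s9; 0.0685 without the HIL mice), and s14, at 71.8 CPM, lay inside the nephritic range. Of 32 proximal tubule genes 0 passed, with a median of 0.18 (-0.12 without the HIL mice), and 18 were lower than in young mice, beside 18.3% of all genes. Slc22a7, an organic anion transporter, was at 582, 330.1, 375 and 676 CPM against 54.7, 262 and 314 CPM. Its groups did not overlap, though the difference of 1.22 did not pass (adjusted p = 0.107). Aqp1, the water channel of the proximal tubule, was at 1214 to 1489 CPM in remission and at 328 to 1187 CPM in nephritic mice, with a difference of 0.80 (adjusted p = 0.138).

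Of 15 podocyte genes, 3 fell beside 8.93% over all genes, with a median of -0.36. The count was 1 without s9, 6 without the HIL mice and 4 without both. Col4a5, a chain of the mature glomerular basement membrane collagen, was at 34.5, 38.1, 28.3 and 41.7 CPM against 44.1, 59.8 and 65.1 CPM. All remission mice were under all nephritic mice and under the young range of 59.2 to 69.7 CPM. It fell by 0.67 (SE 0.15, adjusted p = 0.0154; 0.0223 without s9), and was lower than in young mice by 0.83 (adjusted p = 8.71e-05). Kirrel, a slit diaphragm protein also called Neph1, fell by 0.49 (adjusted p = 0.0348; 0.0871 without s9) and Cd2ap, an adaptor at the slit diaphragm, by 0.64 (adjusted p = 0.0435; 0.0667 without s9). Vegfa, which podocytes and tubules make for the capillaries, was at 188, 171, 157 and 197 CPM against 178, 319 and 369 CPM. Its difference of -0.71 did not pass (adjusted p = 0.063), and passed without the HIL mice (-0.93, adjusted p = 0.00203).

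Energy metabolism was higher in part. Of 90 respiratory chain genes tested, 22 rose and 0 fell, beside 4.75% higher over all genes, with a median of 0.43. These were 14 of 90 without s9, 25 (with 1 lower) without the HIL mice and 0 with the run term. In the repeat libraries 26 of the 90 were higher than in the originals and 15 lower, beside 11.7% and 11.3% over all genes. Ndufb8, a subunit of complex I, was at 621, 525, 598 and 539 CPM in remission and at 253, 305 and 378 CPM in nephritic mice. The lowest remission mouse was above the highest mouse of the nephritic group and of the young group (375 to 462 CPM). Ndufb8 rose by 0.84 (SE 0.14, adjusted p = 0.00546; 0.0158 without s9), with a run shift of 0.23. Atp5k, a subunit of ATP synthase, was at 423, 313, 339.6 and 319 CPM against 127, 176 and 229.5 CPM. The groups did not overlap, and Atp5k rose by 1.00 (SE 0.17, adjusted p = 0.0067; 0.0174 without s9), with a run shift of 0.53. Ndufa13 rose by 0.74 (adjusted p without s9 0.0219) and Ndufa6 by 0.59 (0.0162), each with a run shift of 0.33.

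Of 37 fatty acid oxidation genes, 0 had a lower fitted level, 2 rose beside 4.75% over all genes, and the median was 0.44. Without the HIL mice 10 of 37 had lower fitted levels, 3 were higher and the median was 0.18. Etfb, which passes electrons from fatty acid dehydrogenases to the respiratory chain, was at 854, 651, 745 and 599.98 CPM against 297, 414 and 504 CPM. It rose by 0.78 with no overlap (SE 0.18, adjusted p = 0.018; 0.0296 without s9), and its run shift was 0.33. Acads, the short-chain acyl-CoA dehydrogenase, rose by 0.66 (SE 0.19, adjusted p = 0.0452; 0.0711 without s9). Glycolysis gave 3 of 12 tested, beside the same 4.75%: Hk1, the first kinase of the pathway, rose by 0.72 (adjusted p = 0.00735; 0.0236 without s9), Pfkl, the liver-type phosphofructokinase, by 0.68 (0.0064; 0.0196) and Pkm, the pyruvate kinase, by 0.66 (0.0154; 0.047). Their run shifts were 0.30, 0.13 and 0.21. Of 6 gluconeogenesis genes 0 passed, with a median of 0.55 and 0.17 without the HIL mice. Pck1, the entry enzyme, was at 7829, 5561, 3653 and 1870 CPM against 228, 2792 and 5382 CPM, and the mice of both groups were spread over the same range apart from s10, s12 and the HIL mice (adjusted p = 0.455).

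Clock genes were read with and without s9, because they turn on its label. Of 19 clock and clock output genes, Dbp and Nr1d1 rose and 0 fell, beside 4.75% higher and 8.93% lower over all genes. Without s9, 2 were lower and 2 higher, beside 5.77% and 2.57% over all genes. Without the HIL mice 2 were lower and 1 higher, beside 9.74% and 8.9%. Without both, 6 were lower and 2 higher, beside 7.51% and 6.7%. Nr1d1, the repressor REV-ERBalpha, was at 50.8, 39.5, 75.1 and 34.7 CPM in remission and at 9.25, 18.1 and 28.1 CPM in nephritic mice. All remission mice, s9 included, were above all nephritic mice, and the young range was 24.0 to 44.9 CPM. It rose by 1.44 (SE 0.30, adjusted p = 0.0141; 0.0218 without s9). Its run shift was 0.24, and with the run term the difference was 1.18 with 3 bridging mice (adjusted p = 0.294) and 0.09 with 4 (adjusted p = 0.941). The fit with 4 takes in the RX11RU repeat, which had 88 CPM of Nr1d1 against 18.7 CPM in its original. Dbp, an output transcription factor that peaks near lights off, was at 113, 75.5, 124 and 8.10 CPM against 9.06, 19.7 and 35.2 CPM. The s9 value was under the lowest nephritic mouse, and the other remission mice were within the young range of 65.7 to 132 CPM. Dbp rose by 1.91 (SE 0.57, adjusted p = 0.0479), and by 2.29 without s9 (adjusted p = 0.00933). Without the HIL mice its difference of 1.95 did not pass (adjusted p = 0.0691), and it was not called in 13 of 21 alternative settings.

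Arntl, the activator BMAL1, was at 4.30, 4.96, 3.25 and 27.7 CPM in remission and at 6.48, 10.2 and 15.7 CPM in nephritic mice. Its difference was -0.13 with s9 (SE 0.57, adjusted p = 0.903) and -1.39 without s9 (adjusted p = 0.031), when the remaining 3 mice lay under all nephritic mice and within or just above the young range of 2.18 to 4.88 CPM. Per2, a repressor, was at 74.1, 63.6, 41.7 and 10.5 CPM against 33.8, 102 and 133 CPM. Its remission mice lay under the RX mice, whose lowest value was 97 CPM, and under the young range of 106 to 126 CPM. The differences did not pass for Per2 (-0.95, adjusted p = 0.213; 0.327 without s9), Cry1 (-0.65, 0.191; 0.379), Per3 (-0.55, 0.367; 0.614) or Per1 (0.19, 0.827; 0.533). Cry1 did pass without the HIL mice (-0.93, adjusted p = 0.0124). Whether the difference between remission and nephritic mice was itself another at ZT0 was tested with the 4 remission and 7 nephritic mice labelled ZT0. edgeR called 0 of 16344 genes (782 at an unadjusted p under 0.05), and limma called 0. The 5 genes with the smallest p were Tnfsf15, Gin1, Slc10a6, Immp2l and 2010003K11Rik, each at an adjusted p of 0.898.

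Several large folds were in genes best known from other tissues, or in RNA that shifted with the run. The tissue this RNA came from was not tested. Hpx, the heme scavenger hemopexin of liver, was at 0.253, 0.573, 0.606 and 0.270 CPM in remission and at 0.976, 2.37 and 21 CPM in nephritic mice. It was first by the naming rule among falls, and fell by 3.89 (SE 0.99, adjusted p = 0.0283; 0.0745 without s9). Liver markers, chosen after values were seen, summed to 11.5 to 20.6 CPM in remission, 19.997 to 502 CPM in nephritic and 28.1 to 891 CPM in young mice. Of the 10, 1 (Fgb) passed, beside 8.93% lower over all genes. Fgb did not pass without s9 (adjusted p = 0.0895) or without the HIL mice (0.054). Without the HIL mice 4 of the 10 were lower, beside 9.74% over all genes. Without those mice and s9, 2 were lower, beside 7.51%. With all mice, each of the 10 had a lower fitted level, with a median of -3.43. Albumin (Alb) itself was at 7.02 to 15.2 CPM against 2.28 to 385 CPM, and the part of liver RNA in the result for Hpx was not tested. Adipocyte markers, 6 tested, had a median of 1.32 with 0 past the test and a summed level of 369.8 to 452 CPM in remission against 103 to 326 CPM in nephritic and 179 to 948 CPM in young mice. Adrenal and skeletal muscle markers gave 0 calls among 3 and 2 tested. Alas2, the heme synthesis enzyme of red cell precursors, was at 0.506, 3.68, 1.60 and 52.5 CPM against 0.559, 0.687 and 0.894 CPM. It was first by that rule among rises, with 4.36 (SE 1.03, adjusted p = 0.0209), and 1.44 without s9 (adjusted p = 0.0862). It was the only detected gene of 7 erythroid markers, the 6 globin genes being at 0 in every library.

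Other genes among the largest falls had lower levels in all remission mice than in all nephritic mice. These were the olfactory receptor Olfr78, the scramblase family member Ano3, the transcription factor Gata5 and the unnamed loci 2310081J21Rik and 2700099C18Rik. Olfr78, a receptor for short-chain fatty acids found in renal arterioles, was at 0.253, 0.286, 0.0551 and 0.135 CPM against 1.09, 1.54 and 3.95 CPM, and fell by 3.38 (SE 0.52, adjusted p = 0.00391; 0.0158 without s9). Its young range was 0.493 to 1.19 CPM. Gata5 fell by 2.61 (adjusted p = 0.0148; 0.0409 without s9), Ano3 by 3.37 (0.0247; 0.0632), 2310081J21Rik by 3.30 (0.0204; 0.0581) and 2700099C18Rik by 2.64 (0.0196; 0.0507).

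Among the largest rises, 5 genes had a run shift close to the remission difference. Rn45s, the 45S precursor of ribosomal RNA, was at 7857, 8458, 4423 and 32788 CPM in remission and at 858, 1116 and 1328 CPM in nephritic mice. It rose by 3.59 (adjusted p = 0.00286; 0.00354 without s9), the repeat libraries exceeded their originals by 2.89, and with the run term the difference was 0.70 (adjusted p = 0.712). Lars2 rose by 2.15 with a run shift of 2.19, Gm6402 by 2.38 with 2.23, Mir703 by 2.19 with 2.05 and Adnp by 1.98 with 1.63. Lars2 was at 1194 CPM in s9 and at 126 to 399 CPM in the other remission mice, and without s9 its difference of 1.16 did not pass (adjusted p = 0.0505). The adjusted p without s9 was 0.0286 for Gm6402, 0.0494 for Mir703 and 0.0307 for Adnp. Among 74 cytosolic ribosomal protein genes, also gathered after values were seen, 2 rose (Rpl35a and Rpl32l), beside 4.75% higher over all genes. Without the HIL mice 38 of 73 rose, beside 8.9%. With the run term of 3 bridging mice 0 of 75 rose. In the repeat libraries 32 of 72 were higher than in the originals and 16 lower, beside 11.7% and 11.3% over all genes. Rpl35a rose by 1.51 (adjusted p = 0.000765; 0.0045 without s9) with a run shift of 1.04. Hist1h1e, a linker histone, rose by 2.04 (adjusted p = 0.0262; 0.0693 without s9), at 1.58 to 3.04 CPM in remission against 0.112 to 0.946 CPM, and its run shift was 0.34.

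Set against the 7 young mice, remission mice had 2781 of 15238 genes lower (18.3%) and 3132 higher (20.6%). This comparison shares the remission libraries, and any shift between runs, with the one above. The 5 genes with the smallest p were Guf1, Prpf39, Firre, Cfap69 and Ptbp2, all lower in remission, and all lower than in nephritic mice as well. Guf1, a mitochondrial translation factor, was at 22.9, 21, 20.04 and 21.4 CPM in remission, 33.4, 36.2 and 38.3 CPM in nephritic mice and 42.0, 43.2 and 45.5 CPM in young mice. The groups were fully separate in that order. It was lower than in young mice by 0.99 (adjusted p = 2.44e-06) and fell against nephritic mice by 0.77 (adjusted p = 0.000765; 0.00465 without s9). Tubular injury genes were higher than in young mice in 26 of 26 tested, with a median of 0.84, and proliferation genes in 26 of 29. Genes that fell in remission and did not pass the test against young mice included Cxcl1 (0.48, adjusted p = 0.46), Gdf15 (0.04, 0.917), Tnc (-0.28, 0.376), Pmaip1 (-0.07, 0.837) and Kif20a (0.16, 0.471). Among the genes that rose, Esm1 (0.29, 0.292), Pvalb (-0.04, 0.871), Dbp (-0.07, 0.926) and Acads (0.08, 0.452) also did not pass against young mice, which does not show that their levels are equal.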

How the data were processed

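Whole kidneys were perfused, RNA was extracted with TRIzol, and oligo-dT libraries were sequenced on an Illumina HiSeq. The authors aligned reads to mm10 with a Burrows-Wheeler aligner (the submitters' processing notes also name HISAT, with no version given), counted reads unique to exons and junctions with few mismatches, and deposited whole-number counts per gene symbol without normalization. Each library lists 24538 symbols, and 15 with empty cells were left out. Strand use in counting is not given in the sources used here, so a gene and an antisense partner cannot be told apart, and paralogs such as ribosomal protein genes are uncertain.

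Groups came from the labels of diagnosis and time, and 33 of the 69 libraries were read. In R 4.3.3, genes reaching a summed count of 100 in the libraries fitted were scaled by TMM and tested with edgeR 4.0.16 (quasi-likelihood F test, Benjamini-Hochberg adjustment over all genes, adjusted p of at most 0.05). CPM used TMM factors of the 33 libraries. The test scripts were checked on simulated data. The smallest chi-square per degree of freedom between libraries of a group was 10.19, so none was a duplicate of another. Totals of 14827429 to 37771234 counts set the precision, which is lowest in remission mice. Alternatives were limma 3.58.1, DESeq2 1.42.0, RLE factors, equal medians, other filters and thresholds, thinning, a run term, and leaving out mice. Leaving out the HIL mice together with s9 was added after seeing the data.

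The named genes were the 10 with the largest fall and the 10 with the largest rise past the threshold at a mean of 1 CPM or more and with the same sign without s9, up to 4 members of each list by p, the study's inflammation genes, clock and costimulation genes, and the 5 with the smallest p against young mice and between times. The groups, the 27 gene lists and the tests were chosen with earlier results of these data known, and 3 further lists (splicing, ribosomal proteins, liver) and the nuclear RNAs after their values were seen. Promoters came from RefSeq on GRCm38.p6. Other time points were not used here, and 1 gene that the naming rule picked is not reported here.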

Additional observations from a re-analysis of the deposited data

Results flagged for a closer look

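In 17 of 288 tests of whether a mouse stood far from its group (Dixon's test on log2 of CPM plus 0.5), the mouse did so; chance alone gives about 1 in 20. Of these, 7 were in remission, 2 in nephritic and 8 in young mice, and 4 of the 7 were in s9. Library s9 had 0.0675 CPM of Ano3 (nearest mouse 0.455), 0.270 CPM of Cyp27b1 (3.09), 8.50 CPM of Per3 (33.7) and 9.38 CPM of Cry1 (16.4). Remission mouse s10 had 0.253 CPM of Tnf (nearest 1.89) and 37.8 CPM of Firre (45.4), and s12 had 4.92 CPM of Kif20a (3.08). Nephritic mouse HIL5RU had 19.4 CPM of Cd86 (6.82), and HIL5LL had 2.12 CPM of Esm1 (5.74). Among young mice, ZT120 had 3.86 CPM of Kcns1 (4.52), 1.40 CPM of Mir703 (0.542), 2239 CPM of Malat1 (1442) and 25.9 CPM of Cfap69 (21.4). ZT12LU had 0 CPM of Tnf (0.234), ZT12RU 2.75 CPM of Mrc1 (4.81), CR3LU 535 CPM of Lars2 (153) and CR3RL 368 CPM of Pkm (455).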

How the results depend on the processing

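The count of 2117 genes (1382 lower, 735 higher) was 300 (262 and 38) with a run term bridged by 4 mice and 48 (48 and 0) with 3. It was 478 (374 and 104) at an adjusted p of 0.01, 3612 (2201 and 1411) at 0.1, 528 (419 and 109) with at least a 2-fold difference and 3489 (1493 higher) with DESeq2, and 1344 genes were higher without the HIL mice. Leaving out each mouse gave 780 (without s10) to 2536 genes (without RX10RL), 584 to 1590 lower and 196 to 946 higher, and against young mice 4460 to 6086 (2020 to 2932 lower, 2435 to 3154 higher). The difference between ZT12 and ZT0 stayed at 0 genes throughout. The 4 repeat pairs gave 19 genes (3 lower, 16 higher) with edgeR, 32 (6 and 26) with limma, and 0 to 3388 (0 to 1664 lower, 0 to 1724 higher) leaving out each pair, the highest without RX11RU. The causes were not tested. Of the 95 named genes, only those called in the main comparison had a call to lose, and many had none. With the sign unchanged, 52 genes lost their call with the run term of 3 mice and 47 with 4. The losses were 30 without s10, 28 without s9, 21 without s12, and 18 each without s14 or RX8RU. The named genes that kept their call with 3 mice were Xist, Firre, Cfap69, Pnisr, Clk4, Srsf11, Luc7l, Srek1, Prpf39 and Ptbp2.

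Without the HIL mice the sign turned for Ccl5 (0.077), Per1 (-0.12), Cd28 (0.22), Cd40 (0.33), Ms4a1 (0.14), H2-Eb1 (0.26) and Havcr1 (0.046), and without the HIL mice and s9 for Ccl5 (0.17), Cd28 (0.43), Cd40 (0.43), Ms4a1 (0.25), H2-Eb1 (0.38) and Havcr1 (0.01). With the run term it turned for Lars2 (-0.44 with 4 mice, -0.021 with 3), Per1 (-0.11 with 3) and, with 4, Cry1 (0.34), Cd28 (0.37), Ctla4 (0.14), Cd40lg (0.35) and Ms4a1 (1.49). The fit with 4 set the RX11RU repeat against all nephritic mice at ZT12, not against its own original alone. Leaving out single mice gave values on both sides of 0 for Arntl (-1.39 to 0.17), Per1 (-0.13 to 0.48), Cd40lg (-0.55 to 0.18), Cd28 (-1.13 to 0.21), Cd40 (-0.55 to 0.13) and Ms4a1 (-1.49 to 0.085). None of these had passed the test except Lars2. No paired analysis was possible because the labels give no numbers that tie remission to nephritic mice. Genes under about 1 CPM rest on few reads, most of all in the remission libraries.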
